A study of Mus musculus with 11 samples.

Results

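The genes described here are 9 nuclear genes of the tricarboxylic acid (TCA) cycle and of the pyruvate dehydrogenase complex, taken by gene name from a table of 47131 genes. Of the 9, Pdha1 and Dlat encode parts of the pyruvate dehydrogenase complex, and Cs, Idh3a, Idh3b, Ogdh, Suclg1, Fh1 and Mdh2 encode enzymes or enzyme subunits of the cycle itself. All 9 passed the filter on low counts and were among the 14840 genes tested. RNA came from colorectal organoids, epithelial cultures grown in Matrigel from the colon of C57BL/6J females, 6 to 8 weeks old. In 6 libraries the organoids had received NAP at 10 pM for 48 h. In 5 control libraries they had received phosphate-buffered saline as vehicle, although each control's own label says that it was not treated. NAP is given as an abbreviation without its full name. Whether the biological replicates came from separate mice or separate cultures is not said. The p-values therefore set the difference of NAP from control against the spread among these libraries only, and that spread may be technical.

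The pyruvate dehydrogenase complex turns pyruvate, the end product of glycolysis, into acetyl-CoA inside the mitochondrion. The TCA cycle oxidises that acetyl group to CO2, hands electrons to the respiratory chain, and supplies citrate and other intermediates for synthesis. Differentiated colonocytes oxidise butyrate through the same cycle, while cells at the crypt base are known for a more glycolytic metabolism.

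The libraries held 16546263 to 21947414 gene counts. Levels are given as CPM, a gene's count relative to the library's total, adjusted between libraries with the trimmed mean of M-values (TMM), unless another unit is named. The epithelial label held, since the summed CPM of 8 epithelial markers was 10043 to 13622 in NAP libraries and 9360 to 17021 in control libraries. The summed CPM of 7 fibroblast markers was at most 28.1 in NAP libraries and at most 6.16 in control libraries. The sum of 7 immune markers was at most 24.3 in NAP libraries and 14.5 in control libraries, and that of 5 endothelial markers at most 5.33 and 4.81. None of these 19 markers of other cell types was at 0 in every library. The control libraries spread widely in epithelial markers: a score of 10 absorptive colonocyte markers minus 9 stem cell markers (mean log2 deviation) was 2.45 and 2.38 in controls 2 and 5, −1.10 in control 3, and −2.92 and −3.70 in controls 1 and 4. The NAP libraries lay between these, from −0.67 to 1.50. The summed level of the colonocyte list was 8727 to 14079 CPM in NAP libraries and 3363 to 17029 CPM in control libraries, and that of the stem cell list (with Olfm4, which was below the filter) was 418 to 732 CPM in NAP libraries and 229 to 1964 CPM in control libraries. In bulk RNA, fewer cells of a type and less RNA per cell cannot be told apart.

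The promoters of 6 members are shown. For Cs, Idh3b, Suclg1, Fh1 and Mdh2 the mean CPM of controls 2 and 5 was 1.88 to 2.36 times that of the other controls, and Pdha1 is shown beside them because it was lowest in controls 2 and 5. Idh3b, Suclg1, Fh1 and Mdh2 were higher in those controls than in every other library, whereas Cs was higher still in NAP 2, 4 and 5. Each line gives the 250 bases before the gene start, 5′ to 3′ on the gene's strand, from RefSeq on build GRCm38.p6, which is not the build of the counts. Cs lies at chr10:128337477-128337726 on the plus strand. Idh3b lies at chr2:130284452-130284701 on the minus strand, Suclg1 at chr6:73248255-73248504 on the plus strand and Fh1 at chr1:175625636-175625885 on the minus strand. Mdh2 lies at chr5:135778399-135778648 on the plus strand and Pdha1 at chrX:160138431-160138680 on the minus strand. Capitals mark matches, on either strand, to GGGCGG (the core bound by Sp1), CCAAT (bound by NF-Y) or TGACGTCA (bound by CREB).
Cs: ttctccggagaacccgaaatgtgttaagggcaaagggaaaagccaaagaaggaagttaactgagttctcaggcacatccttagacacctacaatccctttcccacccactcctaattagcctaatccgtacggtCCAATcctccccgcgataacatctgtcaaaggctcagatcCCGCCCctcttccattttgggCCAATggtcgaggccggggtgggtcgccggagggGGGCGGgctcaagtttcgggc
Idh3b: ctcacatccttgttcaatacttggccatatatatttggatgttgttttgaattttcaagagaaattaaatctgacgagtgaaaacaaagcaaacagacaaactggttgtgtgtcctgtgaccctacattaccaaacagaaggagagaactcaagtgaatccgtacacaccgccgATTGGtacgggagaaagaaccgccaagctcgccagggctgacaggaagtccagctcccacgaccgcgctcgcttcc
Suclg1: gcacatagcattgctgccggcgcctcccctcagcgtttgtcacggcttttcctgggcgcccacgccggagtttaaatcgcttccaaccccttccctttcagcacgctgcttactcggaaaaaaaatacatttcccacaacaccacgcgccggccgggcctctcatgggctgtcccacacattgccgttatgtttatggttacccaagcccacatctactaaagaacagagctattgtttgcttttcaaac
Fh1: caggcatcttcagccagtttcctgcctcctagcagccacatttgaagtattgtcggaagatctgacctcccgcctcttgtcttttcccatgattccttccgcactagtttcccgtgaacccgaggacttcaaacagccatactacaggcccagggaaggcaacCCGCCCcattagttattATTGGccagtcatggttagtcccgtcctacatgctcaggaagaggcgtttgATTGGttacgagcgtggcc
Mdh2: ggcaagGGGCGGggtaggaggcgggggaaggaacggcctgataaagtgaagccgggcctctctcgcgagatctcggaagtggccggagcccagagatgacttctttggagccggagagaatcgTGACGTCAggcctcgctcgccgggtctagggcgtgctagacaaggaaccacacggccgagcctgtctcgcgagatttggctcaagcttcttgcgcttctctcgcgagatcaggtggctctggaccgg
Pdha1: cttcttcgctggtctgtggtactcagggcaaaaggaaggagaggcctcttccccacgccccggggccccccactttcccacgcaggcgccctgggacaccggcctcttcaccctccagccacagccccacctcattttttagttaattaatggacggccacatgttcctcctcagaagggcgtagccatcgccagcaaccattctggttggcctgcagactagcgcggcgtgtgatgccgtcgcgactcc

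The promoter table held 8 of the 9 members, all but Idh3a, and 1 start per gene was searched, for Ogdh the first of 6 listed. CCAAT stood in 4 of the 8 windows (Cs, Idh3b, Ogdh and Fh1), against 33.8% of all 32851 promoters in the table. GGGCGG stood in 4 of 8 (Cs, Fh1, Mdh2 and Dlat), against 32.7%. TGACGTCA stood in 2 of 8 (Ogdh and Mdh2), against 1.55%. No window held the NRF1 motif (0.782% of all promoters), CCGGAAG of the ETS factors such as GABPA (6.91%) or AAGGTCA of the oestrogen-related receptors (4.08%). No marked matches overlapped each other in the 8 windows. Cs, Idh3b, Suclg1, Fh1 and Mdh2 had no searched motif in common, and Suclg1 and Pdha1 had no match at all. A match is a run of letters, not a shown binding site.

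Levels between genes were compared as the deposited FPKM values, which divide by gene length. Cs, which condenses acetyl-CoA with oxaloacetate to open the cycle, and Mdh2, which regenerates that oxaloacetate, had the highest levels of the 9, with medians over the 11 libraries of 263 and 260.0 FPKM. These 2 could not be ordered: Cs was above Mdh2 in NAP 2, 4 and 5 and below it in the other 8 libraries. Idh3b followed at a median of 187 FPKM, Suclg1 at 128 FPKM, and each of these neighbours kept its order in 11 of 11 libraries. Fh1, Idh3a and Pdha1 had medians of 86.3, 83.1 and 74.0 FPKM and changed places between libraries. Fh1 was above Idh3a in 8 of 11 libraries, and Idh3a above Pdha1 in 2 of 6 NAP and 5 of 5 control libraries. Ogdh at 47.9 FPKM and Dlat at 32.6 FPKM had the lowest medians. Pdha1 was above Ogdh, and Ogdh above Dlat, in 11 of 11 libraries, while in NAP 2 Ogdh (60.7 FPKM) was above Idh3a (54.5 FPKM). The ranges of every pair of neighbours over the 11 libraries overlapped. The 9 genes together took 0.270 to 0.330% of counts in NAP libraries and 0.237 to 0.340% in control libraries.

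The comparison of NAP with control asked whether these transcripts differed after 48 h. At an adjusted p of 0.05, edgeR's quasi-likelihood test called 0 of the 9 members in either direction, where 2.12% of all tested genes did (1.05% higher and 1.07% lower). Ogdh and Pdha1, both higher with NAP, were the 2 members with an unadjusted p below 0.05, a mark that 23.6% of tested genes met (10.8% higher and 12.7% lower). With limma-voom 0 of 9 members passed (2.04% of genes), and with DESeq2 1 of 9, Ogdh (13.0% of genes). The log2 fold change was positive for 4 members and negative for 5. It ranged from −0.54 for Mdh2 to 0.45 for Cs, with a median of −0.26 beside −0.07 over all tested genes. For every member the NAP and control libraries overlapped, as they did for all but 4.71% of tested genes.

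**Figure D1:**
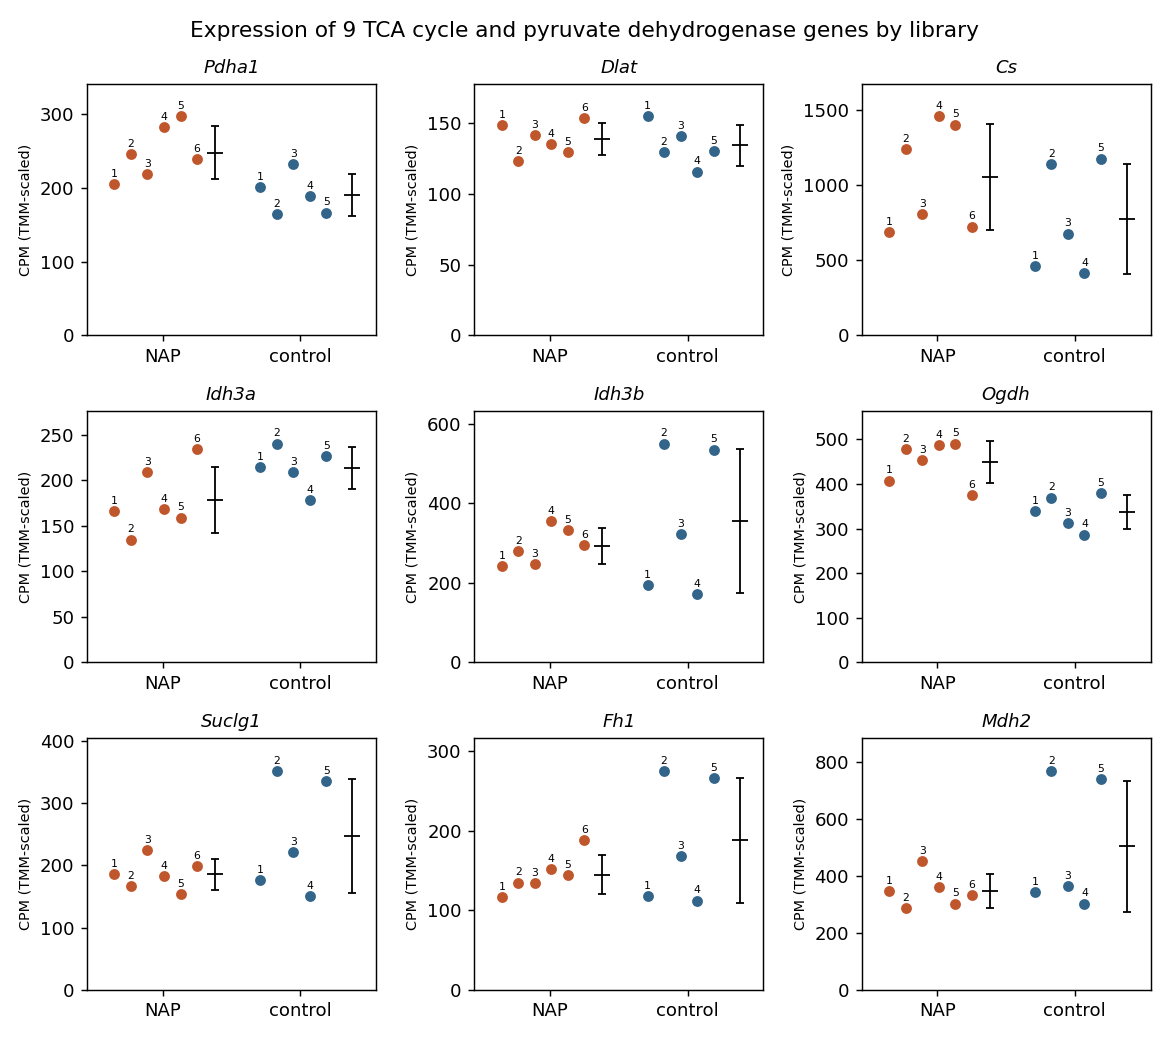
Expression of each gene in CPM (linear axis from 0) in 6 NAP libraries (orange) and 5 control libraries (blue), numbered by replicate, with mean and SD beside each group. Controls 2 and 5 stand above every NAP library for Idh3b, Suclg1, Fh1 and Mdh2, while for Ogdh 5 of 6 NAP libraries stand above all controls.

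Pdha1 (gene identifier 18597, chromosome X from 158905215 to 158921426 of GRCm39) encodes the alpha subunit of the decarboxylating component, whose phosphorylation switches the complex off. It had a lowest value of 205, a median of 242 and a highest value of 297 CPM in NAP libraries, against 201, 164, 232, 188 and 166 CPM in controls 1 to 5. All 6 NAP libraries were above the control mean and 4 above every control. The log2 fold change was 0.38 (SE 0.16, adjusted p = 0.170 in edgeR). Dlat (identifier 235339, chromosome 9 from 50545933 to 50571080) encodes the lipoyl-bearing core that transfers the acetyl group. It averaged 139 ± 11.5 CPM in NAP libraries and 134 ± 14.5 CPM in control libraries (SD, n = 6 and 5). Its log2 fold change was 0.05, with a 95% interval from −0.21 to 0.30, and NAP and control libraries overlapped. Pdha2, the testis paralog of Pdha1, had 0 counts in every library. The interval of Pdha1 overlaps 1128 bases of the antisense neighbour Map3k15, whose mean count was 47.6 against 4068 for Pdha1. It also covers Gm39547, a noncoding gene on the same strand with a mean count of 5.82.

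Cs, the gene with the largest positive fold change among the members, also had a wide spread. Cs (identifier 12974, chromosome 10 from 128173596 to 128198351) had 685, 1242, 808, 1457, 1403 and 724 CPM in NAP 1 to 6, against 461, 1140, 677, 416 and 1176 CPM in controls 1 to 5. NAP 2, 4 and 5 lay above every control, NAP 1, 3 and 6 lay between the controls, and controls 1, 3 and 4 lay below every NAP library. The log2 fold change was 0.45 (SE 0.33, adjusted p = 0.440 in edgeR). Without controls 2 and 5 it was 1.05 (adjusted p = 0.0631 in edgeR), and without controls 1 and 4 it was 0.11. Controls 2 and 5 were the highest controls for Cs and controls 1 and 4 the lowest. Leaving out either pair therefore shifts the fold change by itself, and these fits are no separate evidence of a difference with NAP. Csl, a citrate synthase paralog, had at most 4 counts in a library.

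Isocitrate dehydrogenase of the NAD-linked type, which makes oxoglutarate, is built of alpha, beta and gamma subunits encoded by Idh3a, Idh3b and Idh3g. Idh3a (identifier 67834, chromosome 9 from 54493795 to 54511946), the catalytic subunit gene, had a lowest value of 135, a median of 167 and a highest value of 234 CPM in NAP libraries, against 214, 240, 209, 178 and 227 CPM in controls 1 to 5. Of the NAP libraries 4 lay below every control and NAP 3 and 6 lay among them (log2 fold change −0.26, SE 0.17, adjusted p = 0.365 in edgeR). Idh3b (identifier 170718, chromosome 2 from 130121229 to 130126371) had a lowest value of 242, a median of 288 and a highest value of 354 CPM in NAP libraries, against 195, 549, 322, 171 and 535 CPM in controls 1 to 5. Controls 2 and 5 were above every NAP library and controls 1 and 4 below every one. The log2 fold change was −0.28 (SE 0.30, adjusted p = 0.593 in edgeR) with all libraries and 0.37 without controls 2 and 5, so its direction rested on those libraries. Its interval meets that of Nop56 on the other strand over 5 bases, with mean counts of 5608 for Idh3b and 1285 for Nop56. The coefficient of variation over controls was 10.8% for Idh3a and 50.9% for Idh3b.

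Ogdh had the smallest p of the 9. Ogdh (identifier 18293, chromosome 11 from 6241597 to 6309094) encodes the decarboxylating component of the oxoglutarate dehydrogenase complex, which makes succinyl-CoA. It had 408, 478, 453, 487, 490 and 375 CPM in NAP 1 to 6, against 339, 369, 312, 286 and 379 CPM in controls 1 to 5. Only NAP 6 lay within the control range, and 4 of 5 controls lay below every NAP library. The log2 fold change was 0.41 (SE 0.15, unadjusted p = 0.0179 and adjusted p = 0.130 in edgeR). DESeq2 gave 0.44 with an adjusted p of 0.0225. When each library was left out in turn, the log2 fold change of Ogdh stayed between 0.36 and 0.47 and its adjusted p between 0.111 and 0.251 in edgeR. Its paralog Ogdhl had 12 to 60 counts per library.

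The 3 members that take succinyl-CoA onward to oxaloacetate were each highest in the same 2 control libraries. Suclg1 (identifier 56451, chromosome 6 from 73225488 to 73253890) encodes the alpha subunit of succinyl-CoA ligase. It had a lowest value of 154, a median of 184 and a highest value of 224 CPM in NAP libraries, against 177, 352, 222, 150 and 335 CPM in controls 1 to 5. Fh1 (identifier 14194, chromosome 1 from 175428944 to 175453201) encodes fumarase, which hydrates fumarate to malate. It had a lowest value of 117, a median of 139 and a highest value of 188 CPM in NAP libraries, against 118, 275, 168, 112 and 266 CPM in controls 1 to 5. Mdh2 (identifier 17448, chromosome 5 from 135807503 to 135819240), the mitochondrial malate dehydrogenase gene, had a lowest value of 287, a median of 339 and a highest value of 453 CPM in NAP libraries, against 344, 770, 364, 302 and 740 CPM in controls 1 to 5. For all 3 genes controls 2 and 5 lay above every NAP library, and the other controls lay in or near the NAP range. The log2 fold changes were −0.41 (SE 0.23) for Suclg1, −0.38 (SE 0.25) for Fh1 and −0.54 (SE 0.27) for Mdh2, with adjusted p of 0.290, 0.384 and 0.245 in edgeR. Without controls 2 and 5 they were 0.04, 0.15 and 0.07, in a fit that called 0 of 9 members and 5.32% of genes, and without controls 1 and 4 they were −0.68, −0.68 and −0.82. Suclg1 was then lower past the threshold (adjusted p = 0.0448 in edgeR), the 1 member called in a fit that called 8.28% of genes. For all 3 genes controls 2 and 5 were the highest controls and controls 1 and 4 the lowest. Leaving out either pair therefore shifts the fold change by itself, and these fits are no separate evidence of a difference with NAP. The noncoding gene Gm38834 lies within the Suclg1 interval on the same strand and had a mean count of 14.2, against 3808 for Suclg1.

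The mean of controls 2 and 5 relative to that of controls 1, 3 and 4 was 2.36 for Idh3b, 2.24 for Cs and for Mdh2, 2.04 for Fh1 and 1.88 for Suclg1. It was 1.20 for Ogdh and 1.16 for Idh3a, 0.947 for Dlat and 0.797 for Pdha1. Controls 2 and 5 were also the 2 libraries with the highest colonocyte minus stem cell score, and the part of those markers in the values of the members was not tested beyond the covariate fit described here. They were the closest pair of libraries within either group, and whether they came from separate mice or cultures is not said. Within the NAP group, NAP 2, 4 and 5 had the higher marker scores (1.14 to 1.50, against −0.67 to 0.28 in NAP 1, 3 and 6). Cs, Ogdh and Pdha1 were also higher in each of NAP 2, 4 and 5 than in NAP 1, 3 and 6, and Suclg1 and Dlat were lower in each. Idh3a, Idh3b, Fh1 and Mdh2 did not follow that division. With the marker score as a covariate, an analysis chosen after seeing the data, Idh3b, Suclg1, Fh1 and Mdh2 were called lower and Ogdh higher, at log2 fold changes of −0.40, −0.48, −0.48, −0.59 and 0.36. Adjusted p values were 0.0314, 0.0450, 0.0269, 0.0371 and 0.0470 in edgeR. That fit called 21.4% of all tested genes, and the score was computed from the same RNA. Of the markers in the score, 1 of 10 colonocyte markers was itself called higher with NAP in edgeR, and 0 of 9 stem cell markers were called. The score may therefore carry part of a difference with NAP, which was not tested. The share of counts from the mitochondrial chromosome was 5.17 to 8.08% in NAP libraries and 2.74 to 4.78% in control libraries, and its relation to the members was not tested.

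**Figure D2:**
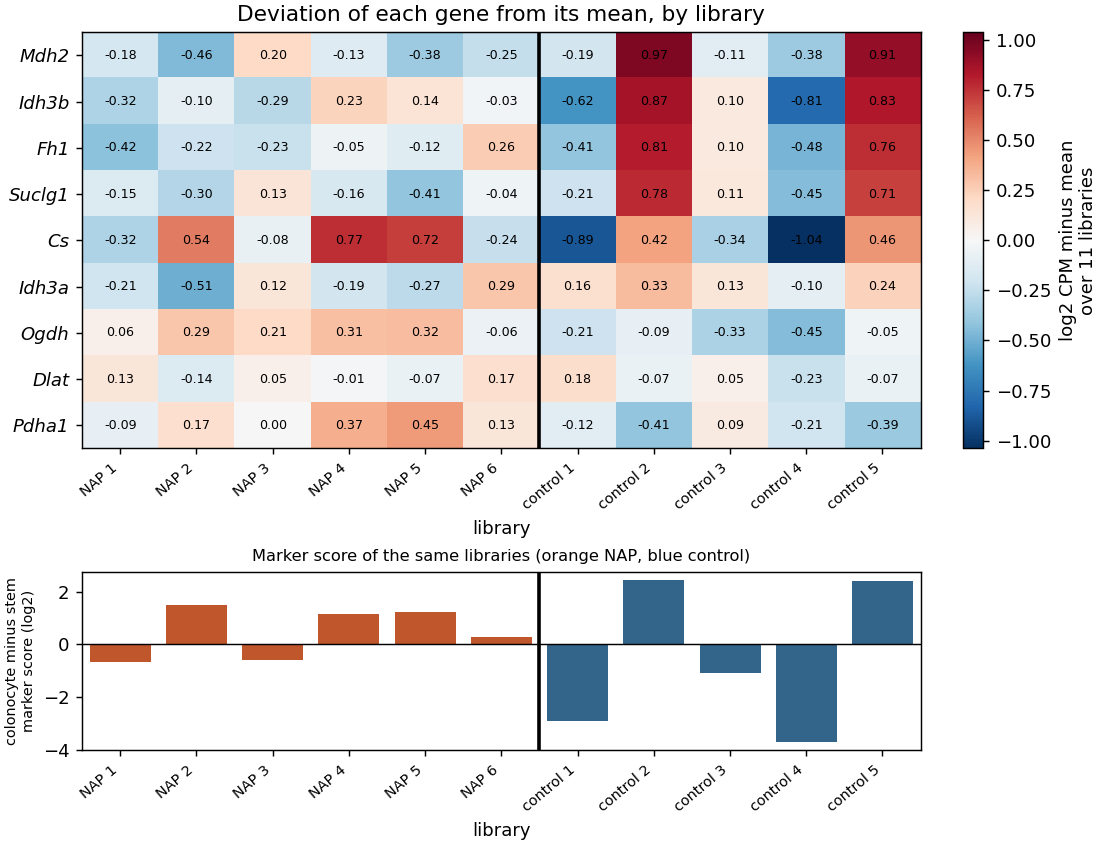
Upper panel, log2 CPM of each gene minus its mean over the 11 libraries, with NAP libraries left of the line; lower panel, the colonocyte minus stem cell marker score of the same libraries (log2 units). Idh3b, Suclg1, Fh1 and Mdh2 deviate by 0.71 to 0.97 in controls 2 and 5, where the score is 2.45 and 2.38, and Pdha1 deviates by −0.41 and −0.39 there.

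**Figure D3:**
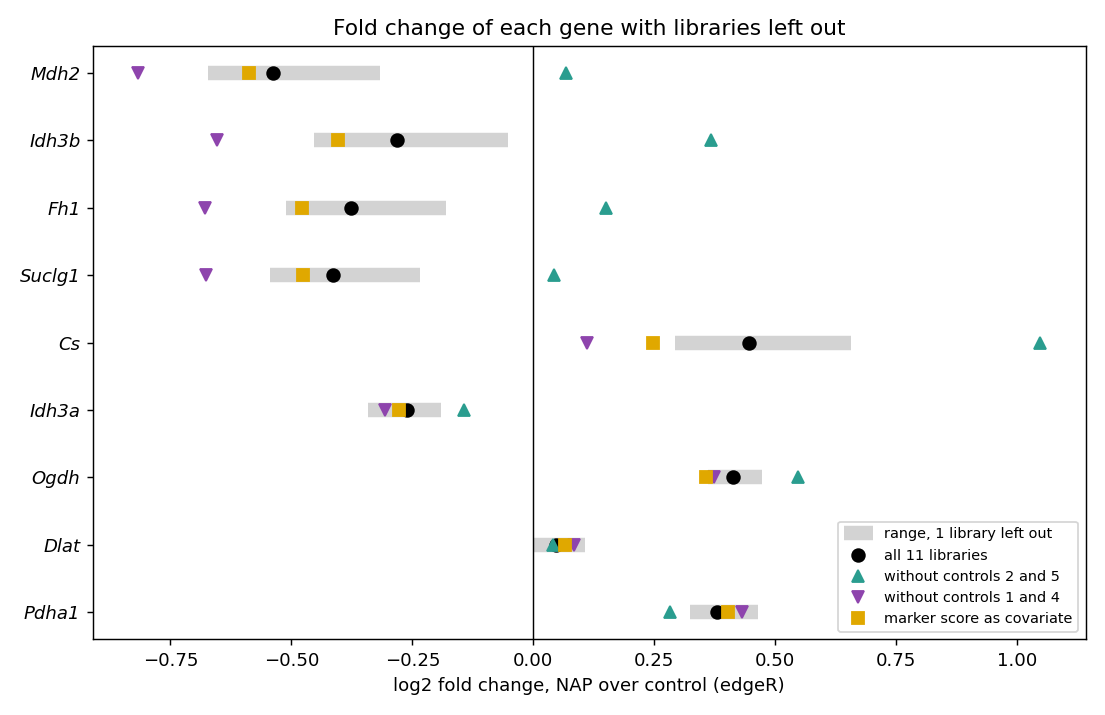
Log2 fold change of each gene, NAP over control, with all libraries, without pairs of controls, with the marker score as a covariate, and (grey) the range with each library left out in turn. Idh3b, Suclg1, Fh1 and Mdh2 lie below 0 with all libraries and above 0 without controls 2 and 5, while Ogdh lies between 0.36 and 0.55 and Pdha1 between 0.28 and 0.46 in the settings drawn.

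Ratios of genes in the same library were compared for 8 pairs, with a two-sided exact permutation test over the 462 splits of 11 libraries into 6 and 5 and adjustment over the 8. No ratio passed after adjustment. Mdh2 relative to Mdh1, the cytosolic malate dehydrogenase gene, came nearest: it was 0.992, 0.989, 1.11, 0.971, 0.962 and 0.778 in NAP 1 to 6, against 1.30, 1.26, 1.04, 1.33 and 1.30 in controls 1 to 5. Only NAP 3 and control 3 broke the separation of the groups (log2 difference −0.37, exact p = 0.00649, adjusted p = 0.0519), and controls 2 and 5 did not stand apart from controls 1 and 4. With each library left out in turn, the log2 difference lay between −0.43 and −0.31 and the adjusted p between 0.0381 and 0.127 (exact permutation). The adjusted p of 0.0381 was reached without control 3 (log2 difference −0.43) and without control 1 (−0.35). Control 3 was the only control within the NAP range, so leaving it out separates the groups by itself and adds no support. Without control 1, NAP 3 and control 3 still broke the separation. The adjustment then included the ratio of Ogdh to Dlst, whose groups that removal separates by itself, so this value adds no support either. Mdh1 itself averaged 360 ± 52.5 CPM in NAP libraries and 404 ± 176 CPM in control libraries.

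Suclg1 relative to Sucla2, the ADP-forming beta subunit gene, was 1.54 to 2.37 in NAP libraries and 2.15 to 2.95 in control libraries (log2 difference −0.42, exact p = 0.0303, adjusted p = 0.121). Pdha1 relative to Dlat was 1.38 to 2.29 in NAP libraries and 1.26 to 1.65 in control libraries (log2 difference 0.33, exact p = 0.0693, adjusted p = 0.143). Ogdh relative to Dlst, the core of the same complex, was 1.75 to 1.94 in NAP libraries and 1.48 to 2.03 in control libraries (log2 difference 0.17, exact p = 0.0714, adjusted p = 0.143). With each library left out in turn, that difference lay between 0.13 and 0.24 and the adjusted p between 0.0381 and 0.305 (exact permutation). The adjusted p of 0.0381 came without control 1 (difference 0.24), which held the ratio of 2.03. The other controls lay below every NAP library, so leaving out control 1 separates the groups by itself and adds no support. Idh3a relative to Idh3b was 0.475 to 0.845 in NAP libraries and 0.424 to 1.10 in control libraries (log2 difference −0.15, exact p = 0.647). Cs relative to Acly, which cleaves exported citrate for lipid synthesis, spanned 2.34 to 8.66 in NAP libraries and 0.846 to 8.59 in control libraries (log2 difference 0.95, exact p = 0.258). Ldha relative to Pdha1, genes of the lactate and the acetyl-CoA branch from pyruvate, was 11.4 to 16.4 in NAP libraries and 8.18 to 31.2 in control libraries. Its log2 difference was −0.25 (exact p = 0.470). Pdk1 relative to Pdha1, a kinase gene and that of its substrate, was 0.814 to 1.18 in NAP libraries and 0.680 to 1.09 in control libraries (log2 difference 0.06, exact p = 0.725).

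**Figure D4:**
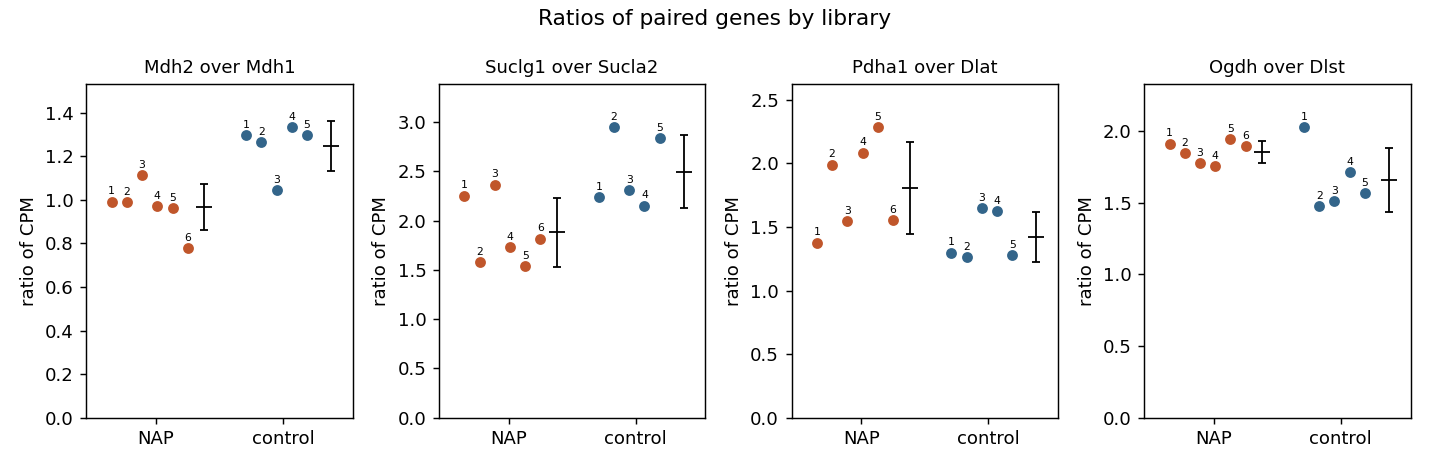
Ratios of CPM within a library (linear axis from 0) for 4 of the 8 pairs, NAP libraries left of control libraries, numbered by replicate, with mean and SD. Mdh2 over Mdh1 is 0.778 to 1.11 in NAP libraries and 1.04 to 1.33 in control libraries, the least overlap of the pairs drawn.

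The rest of the pathway was read from lists chosen with earlier results known. Of 9 other TCA cycle subunit genes (Idh3g, Dlst, Dld, Sucla2, Suclg2 and Sdha to Sdhd) 0 passed over all genes in edgeR and 0 had an unadjusted p below 0.05, with 5 positive and 4 negative and a median log2 fold change of 0.05. Idh3g, the gamma subunit gene of the NAD-linked enzyme, averaged 89.7 ± 16.9 CPM in NAP libraries and 112 ± 30.8 CPM in control libraries (log2 fold change −0.32, adjusted p = 0.340). Dlst averaged 243 ± 30.2 CPM in NAP libraries and 207 ± 39.6 CPM in control libraries (log2 fold change 0.23, adjusted p = 0.418). Of the other pyruvate dehydrogenase subunit genes, Pdhb had 140 ± 20.8 CPM in NAP libraries and 131 ± 28.9 CPM in control libraries. Pdhx, which tethers the third enzyme of the complex, had 15.6 ± 5.22 CPM in NAP libraries and 20.4 ± 1.31 CPM in control libraries (log2 fold change −0.39, adjusted p = 0.335). Over these 20 subunit genes of the cycle and the complex, members included, 10 log2 fold changes were positive and 10 negative.

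The 7 regulatory genes of pyruvate dehydrogenase were the kinases Pdk1 to Pdk4, which switch it off, the phosphatases Pdp1 and Pdp2, which switch it on, and Pdpr. The last encodes a regulatory subunit of the phosphatase. Of these 7 genes 0 passed over all genes in edgeR and 2 had an unadjusted p below 0.05, both higher. Of all tested genes, 10.8% were higher at that mark. Pdp1, a phosphatase gene, averaged 16.5 ± 3.23 CPM in NAP libraries and 9.57 ± 3.33 CPM in control libraries (log2 fold change 0.78, SE 0.24, adjusted p = 0.0859), with 6 of 6 NAP libraries above the control mean. Pdk1 averaged 239 ± 35.0 CPM in NAP libraries and 179 ± 45.7 CPM in control libraries (log2 fold change 0.41, adjusted p = 0.201). Of 8 pyruvate carrier and pyruvate enzyme genes, 0 passed and 0 had an unadjusted p below 0.05. The carrier genes had log2 fold changes of opposite sign: Mpc1 averaged 26.3 ± 4.11 CPM in NAP libraries and 18.9 ± 7.76 CPM in control libraries, and Mpc2 67.8 ± 10.7 CPM and 102 ± 67.1 CPM. Their adjusted p values in edgeR were 0.289 and 0.348.

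Of 9 genes that exchange intermediates with the cycle, 0 passed and 8 log2 fold changes were negative. Got2, the mitochondrial aspartate aminotransferase gene, averaged 106 ± 15.1 CPM in NAP libraries and 161 ± 20.0 CPM in control libraries, with 6 of 6 NAP libraries below every control (log2 fold change −0.60, SE 0.15, adjusted p = 0.0518 in edgeR). Idh2, the NADP-linked mitochondrial isocitrate dehydrogenase gene, averaged 82.2 ± 15.0 CPM in NAP libraries and 130 ± 34.1 CPM in control libraries (log2 fold change −0.66, adjusted p = 0.0789). Acly had 211 ± 59.4 CPM in NAP libraries and 324 ± 185 CPM in control libraries (adjusted p = 0.315). Among 12 general mitochondrial protein genes 0 passed and 5 had an unadjusted p below 0.05, all lower, beside 12.7% of all tested genes that were lower at that mark. Tomm40, the channel of the outer membrane import complex, averaged 62.0 ± 27.9 CPM in NAP libraries and 131 ± 15.4 CPM in control libraries (log2 fold change −1.08, adjusted p = 0.0517), and Phb, a prohibitin gene, 93.0 ± 26.8 CPM and 166 ± 37.9 CPM (adjusted p = 0.0598). Among 9 regulators of nuclear mitochondrial genes 0 passed, and 3 log2 fold changes were positive and 6 negative. At an unadjusted p below 0.05 in edgeR, 3 were higher and 1 lower, beside 10.8% and 12.7% of all tested genes. Gabpa, an ETS factor gene, averaged 56.8 ± 10.1 CPM in NAP libraries and 38.7 ± 6.79 CPM in control libraries (adjusted p = 0.0855), and the coactivator gene Ppargc1a 38.8 ± 3.38 CPM and 29.1 ± 3.16 CPM (adjusted p = 0.0925). Over the 56 genes of these lists 0 passed with edgeR, 10 with DESeq2 and 1, Tomm40, with limma-voom, where these tools called 2.12%, 13.0% and 2.04% of all genes. Of the 56, 14 had an unadjusted p below 0.05 in edgeR (6 higher and 8 lower), a share near the 23.6% of all tested genes (10.8% higher and 12.7% lower).

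**Figure D5:**
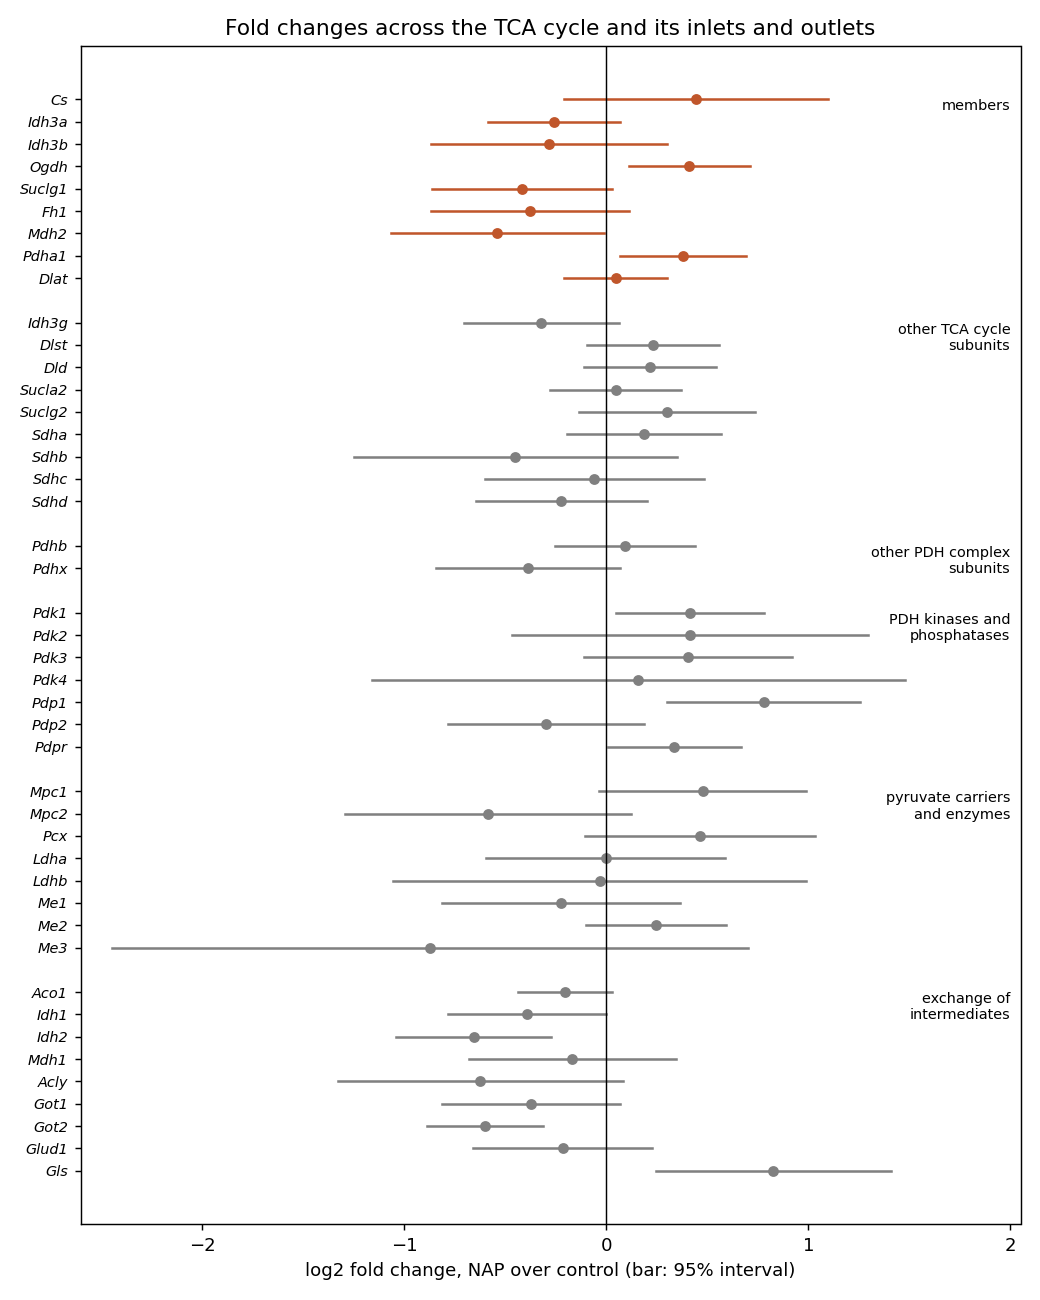
Log2 fold change, NAP over control, with its 95% interval (edgeR, normal approximation), for the 9 members (orange) and the other genes of the cycle, the complex and its regulators, pyruvate use and exchange (grey). Members run from −0.54 (Mdh2) to 0.45 (Cs), and no gene drawn passed an adjusted p of 0.05 over all genes.

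The genes whose pattern was most like the mean of the 9 members were taken from 9428 other tested genes whose mean log2 CPM reached 3. Likeness was Pearson's coefficient over the 11 libraries after each group's mean was subtracted. It is given as a description, and all genes share the same libraries and their differences in composition. The member mean spread more in control libraries (SD 0.38 in log2) than in NAP libraries (0.10), so the coefficients rest mostly on the 5 controls. Pdha1 and Dlat, themselves members, were not higher in controls 2 and 5 as that mean was. The 5 most alike were Kxd1 (0.991), Cisd1, an outer mitochondrial membrane iron-sulphur protein gene (0.990), Atp5a1, the alpha subunit gene of ATP synthase (0.989), Ggt6 (0.989) and Uqcrh, a subunit gene of the cytochrome bc complex (0.988). The microtubule end-binding gene Mapre1 (−0.993) and Traf3 (−0.982) were the most opposite. Atp5a1 averaged 1824 ± 167 CPM in NAP libraries and 1946 ± 568 CPM in control libraries. Mapre1 averaged 114 ± 9.86 CPM in NAP libraries and 97.3 ± 27.9 CPM in control libraries. None of these 7 genes passed the test of NAP against control in edgeR.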

How the data were processed

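Messenger RNA was enriched with poly(T) beads and sequenced, per the labels' protocols. The authors deposited whole-number counts per gene and FPKM values. Per the submitters' processing notes, reads were handled with Trimmomatic 0.39, HISAT2 2.2.1 and featureCounts of Subread 2.0.8 on GRCm39. The strand setting, annotation release and handling of multi-mapped reads are not given in the sources, so values of overlapping genes are uncertain. The deposited FPKM values equalled the counts (to within 0.01 count) divided by gene length and 1 constant per library, at 0.870 to 1.28 times the count total and 1.02 to 1.05 times the TMM-scaled library size computed here.

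Counts were filtered with filterByExpr, scaled with TMM and tested, NAP minus control, with edgeR 4.0.16 (robust quasi-likelihood, R 4.3.3), with Benjamini-Hochberg adjustment over all tested genes and a threshold of 0.05. SE is the log2 fold change over the root of the test statistic. CPM is logged with a prior count of 2, except in ratios. All 11 libraries carry batch label 1. Within groups, 25 pairs of libraries differed beyond counting noise (median chi-square 4.11 to 97.8 times that of chance), so none was counted as the same library sequenced again. This cannot show whether 2 libraries share a culture or a mouse. Controls 2 and 5 were the closest pair (4.11), against 12.1 for controls 1 and 4 and 30.1 to 97.8 for other control pairs. Pairs among NAP 2, 4 and 5 had 6.09 to 8.09. Alternatives used DESeq2 1.42.0, limma 3.58.1, other scalings and filters, and libraries left out. GC content came from GENCODE M21 transcripts for 84% of tested genes. Named genes were the members, 2 genes with the smallest p per pathway list (or all called), the genes of the ratios and the 5 most like and 2 most opposite genes. Some genes of these lists are not reported here. The members and lists were chosen with earlier results of these data known. The procedure was tested on simulated data.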

Additional observations from a re-analysis of the deposited data

Results flagged for a closer look

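The ratio of Mdh2 to Mdh1 in control replicate 3 was 1.04, while the other 4 controls lay between 1.26 and 1.33. Its distance from the nearest of them, relative to the whole range of the controls, exceeded the critical value of Dixon's test at 95%. It was the 1 such value among 72 groups of libraries checked, and chance alone gives about 1 in 20.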

How the results depend on the processing

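Members called (0 of 9) became 1 with DESeq2 (Ogdh), 1 without controls 1 and 4 (Suclg1) and 5 with the marker score as covariate, which was chosen after seeing the data; it was 0 to 0 with 1 library left out. Pathway list genes called (0 of 56) became 10 with DESeq2, 1 with limma-voom, 2 with a CPM of at least 1 in 5 libraries, 1 with limma on log2(FPKM + 1) and 1 on log2(FPKM + 0.1), 3 without controls 2 and 5, 9 without controls 1 and 4, 14 with the covariate, and 0 to 4 with 1 library left out. Of all genes, 156 were higher and 159 lower. These became 839 and 817 with DESeq2, 56 and 33 without a filter, 38 and 5 with the GC trend removed, 420 and 404 without controls 2 and 5, 448 and 867 without controls 1 and 4, and 1576 and 1602 with the covariate. With 1 library left out they ranged over 0 to 411 and 0 to 435, and both were 0 without NAP 2, 4 or 5 or control 1, 2 or 5. The cause was not tested.

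With a replicate block, over the 5 shared numbers, 0 members, 0 higher and 0 lower genes were called (2871 at an unadjusted p below 0.05) and Ldha was 0.15. Same-numbered libraries had correlations of deviations from −0.46 to 0.44, so the numbers were not treated as pairs.

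Log2 fold changes turned positive without controls 2 and 5 for Idh3b (0.37), Suclg1 (0.044), Fh1 (0.15), Mdh2 (0.067), Idh3g (0.015), Mpc2 (0.34), Mdh1 (0.39) and Ldha (0.53). With the GC trend removed Dlat was −0.026, Sucla2 −0.30, Pdhb −0.051 and Ldha 0.066. Other members kept their sign in that fit but some moved: Pdha1 was 0.22 (unadjusted p = 0.134 in edgeR) and Idh3a −0.52 (unadjusted p = 0.0151 in edgeR). Fh1 was −0.61 and Mdh2 −0.28. Without controls 1 and 4 Sucla2 was −0.13, Pdhb −0.064 and Acly 0.082, and with the covariate Sucla2 was −0.048. Ldha (−0.00) was 0.011 with RLE scaling, 0.022 with DESeq2, 0.11 with limma-voom, 0.048 without a filter, and 0.14 with both FPKM fits. With 1 library left out the ranges were −0.18 to 0.20 for Ldha, −0.31 to 0.046 for Mdh1, −0.045 to 0.15 for Sucla2 and −0.018 to 0.18 for Pdhb. Ratio differences (log2) ranged over −0.31 to 0.032 for Idh3a over Idh3b, −0.054 to 0.12 for Pdk1 over Pdha1, 0.13 to 0.24 for Ogdh over Dlst and −0.43 to −0.31 for Mdh2 over Mdh1.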
